A study of Mus musculus with 27 samples.

Results

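The genes described are autophagy and lysosome genes of the mouse liver, chosen from a list of 37 names that cover the steps from nutrient sensing by mTOR to digestion in the lysosome. Each gene was represented by the probe set of highest mean value annotated to it alone. Of the 37 genes, 35 had such a probe set, out of 18820 genes with one on the array, and all 35 lay above the intensity minimum on every array. Becn1 and Ctsb have no value here, because each of their probe sets also names a second gene. Livers came from 27 male C57BL/6J mice with 1 array per mouse, 7 fed the control diet (C), 7 a moderate fat diet (MF), 7 an intermittent diet (INT) and 6 kept on caloric restriction (CR). All mice arrived at 7 weeks of age and, after 2 weeks of acclimatization, began their diets at 9 weeks, to be sacrificed at 12 months. C and MF were fed ad libitum, MF with 25% of energy from fat, and CR mice received a daily portion with a restriction of 30%. INT-fed mice alternated weekly between MF ad libitum and a restriction of 40%, and were sacrificed in an ad libitum week. Every mouse was mock-treated, with 4 h of fasting, a gavage of carboxymethyl cellulose vehicle and a further 6 h of fasting, so no liver was sampled in the fed state. CR mice were given their daily portion in the afternoon, whereas the other mice had food ad libitum before the fast, and all were sacrificed in the afternoon. Time of feeding thus went with CR in every comparison and cannot be told apart from the restriction. The mice were housed in pairs on arrival and individually from the start of the diets. The labels do not give their litters or earlier cage mates.

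Autophagy encloses cytoplasm in a double membrane, the autophagosome, which fuses with the lysosome, where hydrolases break the contents down. In the liver it supplies amino acids and lipids during fasting and removes damaged organelles. The kinase mTOR, as part of mTOR complex 1, holds the pathway back when nutrients are plentiful, through the ULK kinases and through the transcription factors TFEB and TFE3. Much of this control acts on proteins, which the arrays did not measure.

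Calls among the 35 genes came only in comparisons with CR. Against C, 11 of the 35 genes passed the test in CR-exposed mice, 4 of them higher and 7 lower, whereas 17.5% of the 13603 genes tested passed it, 8.46% higher and 9.05% lower (limma, adjusted p under 0.05, adjusted over all genes). Against MF, 3 were higher and 8 lower in CR, beside 19.8% of all genes called, 8.57% higher and 11.2% lower. In INT against CR, 8 were higher and 4 lower in INT, beside 15% of all genes called, 8.37% higher and 6.62% lower. These 3 comparisons share the same 6 CR mice and are not independent of each other. The median log2 difference of the 35 genes was -0.092 for CR minus C and -0.099 for CR minus MF, against 0.004 and -0.002 over all genes tested, and 0.065 for INT minus CR, against -0.001. In all, 15 of the 35 genes passed in at least 1 comparison with CR and 9 in all 3, beside 25.7% and 10.1% of all genes tested, and 20 of the 35 passed in none. The genes tested include dimmer ones, whereas all 35 lay above the minimum on every array. In a fit to only the 11752 genes that did so, 20.3% were called against C, 23% against MF and 17.6% in INT against CR. Ulk2, Gabarapl2, Wipi2 and Mtor were lower in every CR mouse than in each of the other 21 mice, and Ctsl and Tsc1 were higher. Over all genes tested, 2.75% stood apart in this way, 1.57% lower and 1.18% higher in CR. Taken by comparison, the CR mice did not overlap with C in 7 of the 35 genes (6.7% of all genes), with MF in 8 (7.02%) and with INT in 7 (6.43%).

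No gene of the 35 passed between MF and C, INT and C, or INT and MF, where percent called over all genes was 0 in each comparison with limma. At an unadjusted p under 0.05 there were 0, 0 and 8 of the 35 genes and 464, 922 and 1479 of the 13603. No gene of the 35 was free of overlap in these comparisons, as were 0.0588%, 0.257% and 0.103% of all genes. The largest difference among the 8 was that of Hexa in INT against MF, at -0.44 (SE 0.16, adjusted p = 0.365). The array replicates 1 to 4 and 5 to 7 differed in the spread of their values, with a mean interquartile range of 3.63 log2 units (SD 0.03) and 3.72 (SD 0.03), and each holds every diet. The 34 called differences of the genes had the same sign within both sets of arrays, and all 34 were called with the set as a block. As the 34 were picked by their calls on these same arrays together, neither result is an independent check. Within replicates 1 to 4 alone 17 of the 34 were called, and within replicates 5 to 7 alone 5.

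**Figure D1:**
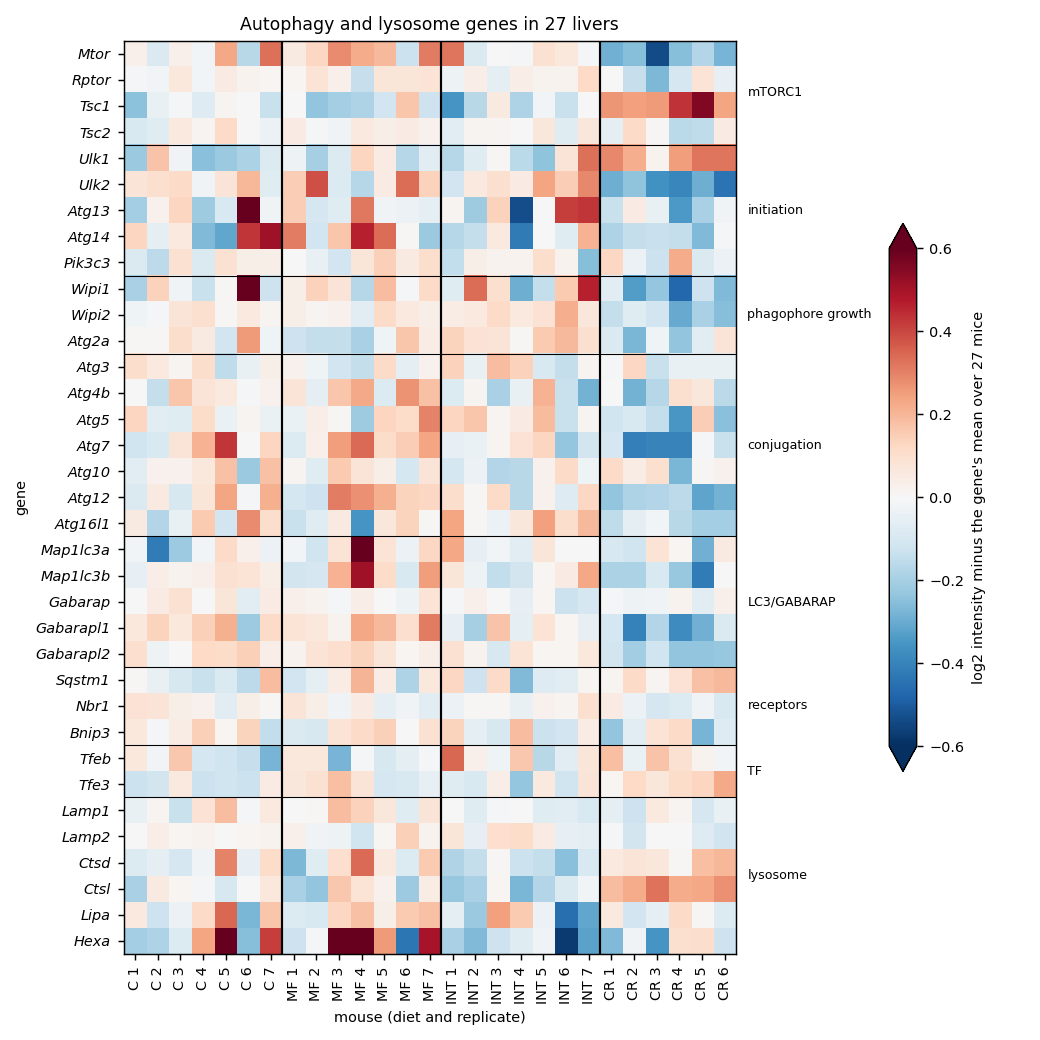
Log2 intensity of the 35 genes (rows, by role) in the 27 mice (columns, by diet and replicate), each minus the gene's mean over all mice, on a colour scale that ends at 0.6 log2 units either way. The 6 CR columns are blue throughout for Mtor, Ulk2, Wipi2 and Gabarapl2 and red throughout for Tsc1 and Ctsl.

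Genes of mTOR control came first. Mtor, the kinase itself, was lower in CR, and Tsc1, whose product restrains mTOR complex 1 together with that of Tsc2, was higher. The log2 intensity of Mtor ran from 8.59 to 9.09 (median 8.79) in C-fed, 8.63 to 9.07 (8.95) in MF-fed, 8.67 to 9.08 (8.76) in INT-fed and 8.22 to 8.58 (8.49) in CR-exposed mice. The CR mice lay below all others, though the highest CR value was next to the lowest C value. Mtor differed by -0.35 (SE 0.08, adjusted p = 0.00337) between CR and C, a level 1.27-fold lower, and by -0.45 (SE 0.08, adjusted p = 0.00023) between CR and MF. For INT minus CR the difference was 0.35 (adjusted p = 0.0035). Tsc1 ran from 7.61 to 7.87 (median 7.81) in C, 7.62 to 8.02 (7.73) in MF, 7.5 to 7.91 (7.72) in INT and 8.09 to 8.41 (8.12) in CR. No CR mouse overlapped with another diet, and the difference was 0.40 (SE 0.07, adjusted p = 0.000268) from C, 0.43 (adjusted p = 0.000108) from MF and -0.45 for INT minus CR (adjusted p = 8.52e-05). Tsc2 and Rptor, which encodes the scaffold of mTOR complex 1, passed in no comparison. Tsc2 differed by -0.03 between CR and C (95% interval -0.13 to 0.07) and Rptor by -0.09 (-0.2 to 0.01). Rptor was called between CR and MF without MF replicate 4 or CR replicate 5 (adjusted p as low as 0.0469).

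At the initiation step, the pair of ULK kinases that start autophagosome formation moved in opposite directions. Ulk1 ran from 9.27 to 9.69 (median 9.33) in C, 9.32 to 9.65 (9.46) in MF, 9.28 to 9.85 (9.45) in INT and 9.54 to 9.84 (9.79) in CR. Its overlap with C and MF came from 1 CR mouse, replicate 3 at 9.54, whereas the other 5 lay between 9.74 and 9.84, above every C-fed and MF-fed mouse. The difference was 0.35 from C (SE 0.08, adjusted p = 0.00327) and 0.29 from MF (adjusted p = 0.0129). For INT minus CR it was -0.27 (adjusted p = 0.0262), a call that was lost when INT replicate 1, 4 or 5 or CR replicate 5 or 6 was left out, with an adjusted p of at most 0.0641. Ulk2 ran from 8.88 to 9.15 (median 9.03) in C, 8.78 to 9.34 (9.09) in MF, 8.84 to 9.24 (9.05) in INT and 8.51 to 8.71 (8.62) in CR, so CR did not overlap with any other diet. Ulk2 differed by -0.41 (SE 0.08, adjusted p = 0.000414) from C, by -0.46 (adjusted p = 0.000106) from MF and by 0.45 for INT minus CR (adjusted p = 0.000153). Atg13, a partner of the ULK kinases, and Atg14 and Pik3c3, subunits of the lipid kinase complex that marks the forming membrane, passed in no comparison. The CR minus C differences were -0.15 for Atg13 (95% interval -0.42 to 0.12), -0.21 for Atg14 (-0.47 to 0.04) and 0.02 for Pik3c3 (-0.11 to 0.16).

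**Figure D2:**
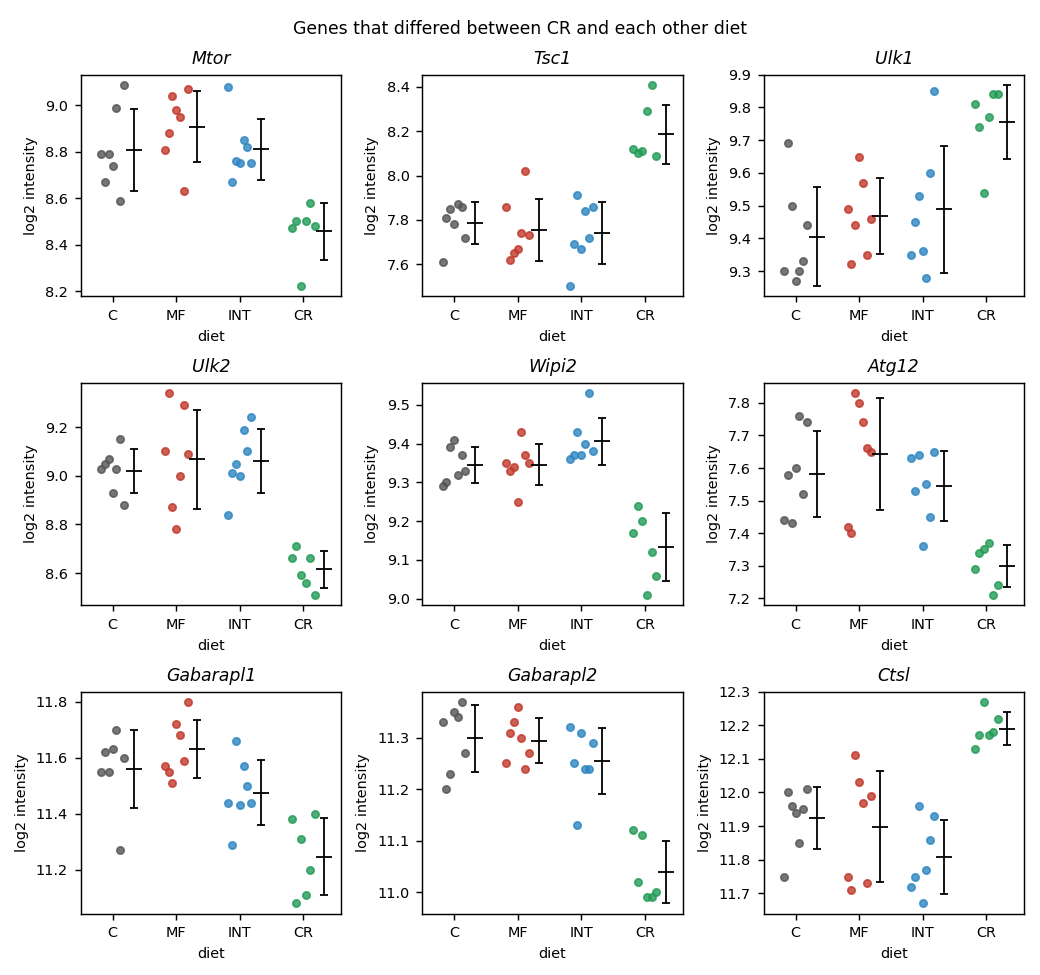
Log2 intensity (y axes, which do not start at 0) of the 9 genes called between CR and each other diet, by diet (x axes). Points are mice (7 C, 7 MF, 7 INT, 6 CR), and black bars are the mean and SD. CR mice lie below all others for Mtor, Ulk2, Wipi2 and Gabarapl2 and above all others for Tsc1 and Ctsl, while Ulk1, Atg12 and Gabarapl1 overlap with at least 1 diet.

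Among the genes for membrane growth, Wipi2 was lower in CR. Its product binds the marked membrane and brings ATG16L1 to it. Wipi2 ran from 9.29 to 9.41 (median 9.33) in C, 9.25 to 9.43 (9.35) in MF, 9.36 to 9.53 (9.38) in INT and 9.01 to 9.24 (9.15) in CR. CR lay below every other diet, with a difference of -0.21 (SE 0.04, adjusted p = 0.00137) from C, -0.21 (adjusted p = 0.00129) from MF and 0.27 for INT minus CR (adjusted p = 0.000106). A dimmer probe set of Wipi2, with group means between 5.59 and 5.82, gave -0.21, -0.11 and 0.22 for the same differences, and with the mean of both probe sets the call against MF was lost. Wipi1, a relative of Wipi2, had a CR minus C difference of -0.33 with a wide error (SE 0.13, adjusted p = 0.0885), beside 1 C-fed mouse, replicate 6 at 8.51, above the other 6 at 7.42 to 7.75. Without C replicate 6, Wipi1 was called between CR and MF (adjusted p = 0.0261) and between INT and CR (adjusted p = 0.0198). Atg2a, which encodes a lipid transfer protein that feeds the growing membrane, was called in INT against CR only, at 0.21 (SE 0.07, adjusted p = 0.0283). This call was absent when any 1 of CR replicates 2 and 4 and INT replicates 5 and 6 was removed, at an adjusted p of at most 0.0874.

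In the conjugation system, which attaches LC3 and its relatives to the membrane, Atg7 and Atg12 were lower in CR. Atg7 encodes the enzyme that activates both ubiquitin-like proteins of the pathway, and Atg12 encodes 1 of these proteins. Atg7 ran from 8.53 to 9.08 (median 8.73) in C, 8.57 to 8.99 (8.8) in MF, 8.42 to 8.78 (8.61) in INT and 8.24 to 8.64 (8.38) in CR, with overlap between all diets. The difference was -0.34 (SE 0.09, adjusted p = 0.00775) from C and -0.39 (adjusted p = 0.00189) from MF, and for INT minus CR it was 0.22 (adjusted p = 0.102), which passed only without CR replicate 5 (adjusted p = 0.0478) or with median centring. Atg12 ran from 7.43 to 7.76 (median 7.58) in C, 7.4 to 7.83 (7.66) in MF, 7.36 to 7.65 (7.55) in INT and 7.21 to 7.37 (7.31) in CR. CR did not overlap with C or MF and overlapped with INT at the lowest INT-fed mouse. Atg12 differed by -0.28 (SE 0.07, adjusted p = 0.00663) from C, -0.34 (adjusted p = 0.00104) from MF and 0.25 for INT minus CR (adjusted p = 0.0198). Atg16l1, whose product places the conjugation complex on the membrane, was called in INT against CR, at 0.25 (SE 0.08, adjusted p = 0.0252), with overlap between the diets and with the call lost without INT replicate 1 or 5 or CR replicate 6 (adjusted p up to 0.0554). Atg3, Atg4b, Atg5 and Atg10, for the enzymes that transfer or trim the conjugates and for the partner of ATG12, were not called in any comparison. Between CR and C they differed by -0.04 (95% interval -0.17 to 0.08), -0.1 (-0.25 to 0.06), -0.14 (-0.3 to 0.01) and -0.02 (-0.17 to 0.12). Atg5 was called between CR and MF without MF replicate 4 or CR replicate 5 (adjusted p as low as 0.02) and between INT and CR without CR replicate 5 or INT replicate 6 (as low as 0.0168), and Atg4b between CR and MF without MF replicate 5 (adjusted p = 0.0493).

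Of the genes for the conjugated proteins, Gabarapl1 and Gabarapl2 were lower in CR, whereas Gabarap and Map1lc3a were not called. Gabarapl2 ran from 11.2 to 11.37 (median 11.33) in C, 11.24 to 11.36 (11.3) in MF, 11.13 to 11.32 (11.25) in INT and 10.99 to 11.12 (11.01) in CR. It lay lower in CR than in every mouse of the other diets, by a difference of -0.26 (SE 0.04, adjusted p = 0.000117) from C, -0.26 (adjusted p = 0.000118) from MF and 0.21 for INT minus CR (adjusted p = 0.00109). Gabarapl1 ran from 11.27 to 11.7 (median 11.6) in C, 11.51 to 11.8 (11.59) in MF, 11.29 to 11.66 (11.44) in INT and 11.08 to 11.4 (11.25) in CR. CR did not overlap with MF, and its overlap with C came from 1 C-fed mouse, replicate 6 at 11.27. Gabarapl1 differed by -0.31 (SE 0.07, adjusted p = 0.00267) from C, -0.38 (adjusted p = 0.000299) from MF and 0.23 for INT minus CR (adjusted p = 0.0303). The last call did not survive removal of any 1 of INT replicates 3 and 5 and CR replicates 2, 4 and 5, at an adjusted p of at most 0.088. Map1lc3b, the gene of the widely used marker LC3B, ran from 11.03 to 11.17 (median 11.12) in C, 10.97 to 11.59 (11.19) in MF, 10.93 to 11.31 (11.09) in INT and 10.66 to 11.08 (10.89) in CR. It was called between CR and MF only, at -0.30 (SE 0.08, adjusted p = 0.0117), while CR minus C was -0.22 (adjusted p = 0.0652), called without MF replicate 4 or CR replicate 6 (adjusted p as low as 0.0277). Its other probe set gave -0.25 for CR minus C and -0.30 for CR minus MF. Gabarap, by contrast with its relatives, differed by -0.04 between CR and C (95% interval -0.12 to 0.04), and Map1lc3a by 0.02 (-0.17 to 0.22).

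None of the cargo receptor genes was called. Sqstm1, which encodes p62, a receptor for ubiquitinated cargo, ran from 11.14 to 11.48 in C, 11.11 to 11.5 in MF, 11.03 to 11.42 in INT and 11.31 to 11.49 in CR, with overlap throughout. The CR minus C difference was 0.15 (95% interval 0.01 to 0.29, adjusted p = 0.15). Nbr1, a second receptor of this kind, differed by -0.08 (-0.16 to 0.01) and Bnip3, a receptor for mitochondria, by -0.11 (-0.25 to 0.03). A second probe set of Bnip3 gave -0.18.

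**Figure D3:**
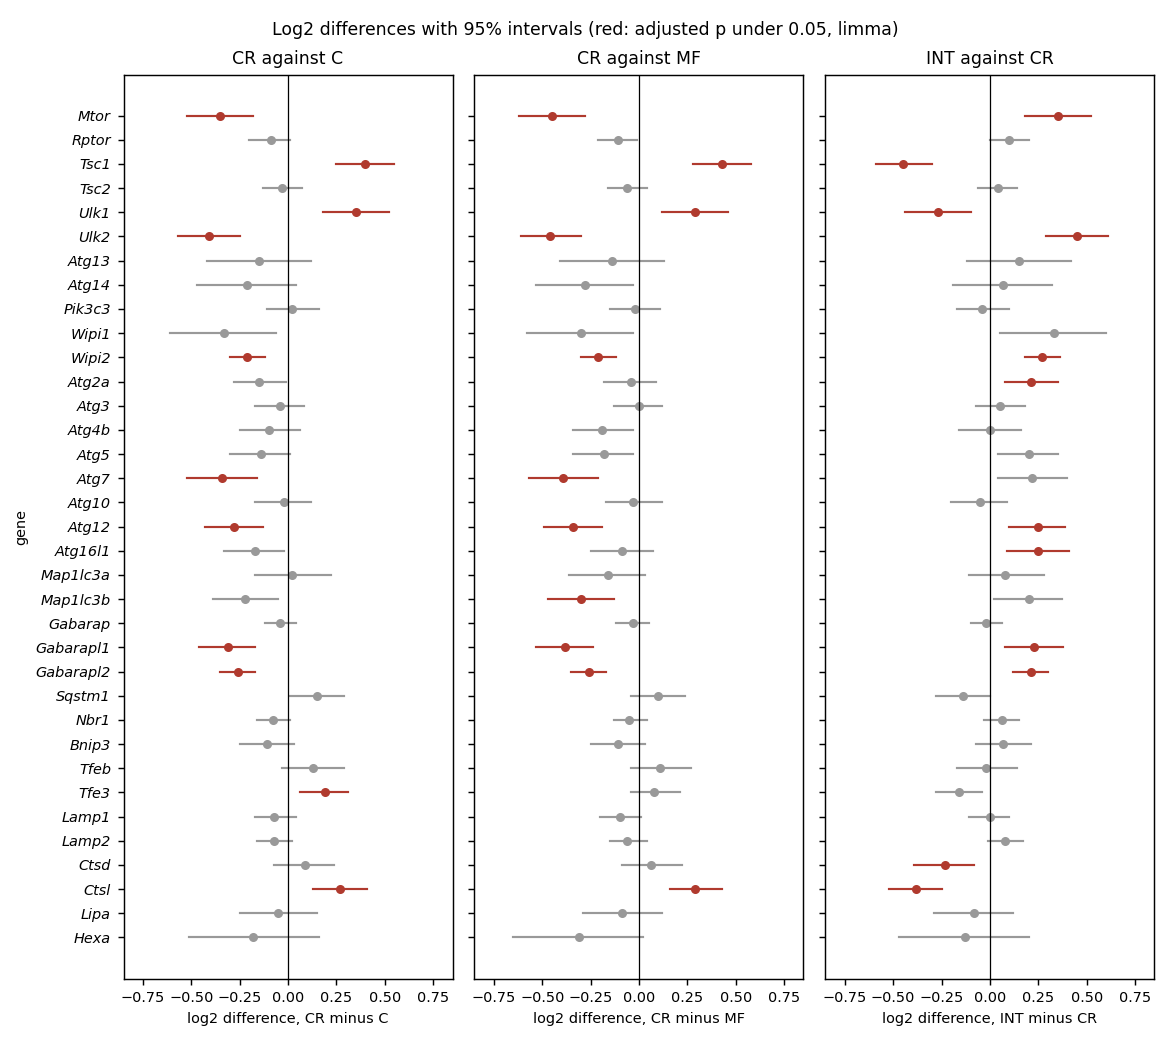
Log2 difference (x axes) of each of the 35 genes (y axis, by role) for CR minus C, CR minus MF and INT minus CR, with 95% intervals from limma. Red marks an adjusted p under 0.05 and grey the rest. Among the called genes of CR minus C, Tsc1 at 0.40 is the highest and Ulk2 at -0.41 the lowest.

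Tfeb and Tfe3 encode the transcription factors that switch on lysosome and autophagy genes when mTOR activity is low. Tfe3 ran from 7.94 to 8.13 (median 7.95) in C, 7.97 to 8.25 (8.14) in MF, 7.84 to 8.15 (8) in INT and 8.08 to 8.3 (8.18) in CR, with overlap between all diets. It was called between CR and C only, at 0.19 (SE 0.06, adjusted p = 0.0277), and that call was lost without C replicate 4, 5 or 6 or CR replicate 2 or 6 (adjusted p up to 0.0764). For CR minus MF the difference was 0.08 (adjusted p = 0.346), and for INT minus CR it was -0.16 (adjusted p = 0.071), called without INT replicate 7 (adjusted p = 0.0491) or with cyclic loess. Tfeb differed by 0.13 between CR and C (95% interval -0.03 to 0.29, adjusted p = 0.262). TFEB and TFE3 bind DNA at the letters CACGTG, and these were searched in the windows from 250 bases before to 50 after the start of transcription that RefSeq gives (mouse assembly GRCm38.p6). The letters read the same on both strands. A window was found for 31 of the 37 genes, and 8 of them (25.8%) held CACGTG, against 8.09% of 27025 genes. The longer TCACGTG, which contains the former, was in 16.1% against 4.29%, and GTAAACA, a motif of FoxO factors, searched on both strands, in 0 of 31 against 4.05%. Of the 13 windowed genes called in a comparison, 3 held CACGTG (Atg7, Ctsd and Ctsl), and of the 18 not called, 5 (Atg14, Atg3, Atg5, Bnip3 and Lamp1). The start of transcription used for the windows of Atg7 and Ctsl lies 27969 and 252 bases inside the gene's outermost start, so these windows describe an internal start.

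The 250 bases before the start are shown for the lysosome genes Lamp1 (chr8:13158911-13159160, plus strand) and Ctsd (chr7:142387828-142388077, minus strand) and for Atg3 (chr16:45158579-45158828, plus strand), in which several CACGTG, in capitals, stand. Mtor (chr4:148448332-148448581, plus strand) and Gabarapl2 (chr8:111940453-111940702, plus strand) are shown as genes that were lower in every CR mouse and whose window holds none. All are written 5′ to 3′ on the gene's strand and end at the base before the outermost start of the gene in RefSeq.
Lamp1: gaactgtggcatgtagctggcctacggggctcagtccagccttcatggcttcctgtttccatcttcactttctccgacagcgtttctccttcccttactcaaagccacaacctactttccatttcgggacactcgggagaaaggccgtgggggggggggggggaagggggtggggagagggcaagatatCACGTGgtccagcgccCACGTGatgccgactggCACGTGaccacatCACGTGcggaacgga
Ctsd: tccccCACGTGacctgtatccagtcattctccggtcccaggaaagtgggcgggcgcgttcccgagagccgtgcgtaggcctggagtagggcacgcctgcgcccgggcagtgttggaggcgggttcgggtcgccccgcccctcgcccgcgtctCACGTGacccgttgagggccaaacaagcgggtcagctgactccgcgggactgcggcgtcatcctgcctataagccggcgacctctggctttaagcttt
Atg3: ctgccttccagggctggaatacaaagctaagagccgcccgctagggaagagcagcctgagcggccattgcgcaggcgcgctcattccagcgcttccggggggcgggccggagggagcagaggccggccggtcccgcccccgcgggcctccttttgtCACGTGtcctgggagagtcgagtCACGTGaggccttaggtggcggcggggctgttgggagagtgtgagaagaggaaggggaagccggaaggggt
Mtor: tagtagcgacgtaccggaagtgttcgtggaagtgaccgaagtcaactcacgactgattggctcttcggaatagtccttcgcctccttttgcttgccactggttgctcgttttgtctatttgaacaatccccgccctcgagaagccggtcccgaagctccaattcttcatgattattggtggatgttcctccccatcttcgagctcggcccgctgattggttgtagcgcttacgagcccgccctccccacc
Gabarapl2: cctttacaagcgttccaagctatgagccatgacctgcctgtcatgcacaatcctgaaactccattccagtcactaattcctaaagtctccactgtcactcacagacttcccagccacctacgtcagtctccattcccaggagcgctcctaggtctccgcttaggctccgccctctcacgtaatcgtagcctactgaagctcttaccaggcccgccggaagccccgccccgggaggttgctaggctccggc
Lamp1 held 4 copies within the last 61 bases before the start, Ctsd held 2, at 245 and 98 bases, and Atg3 held 2, at 94 and 71 bases. In CR against C, the log2 differences of Lamp1, Atg3 and Ctsd were -0.07, -0.04 and 0.09 and were not called. Lamp1 and Atg3 were called in no comparison, and Ctsd in INT against CR, at -0.23 (limma, adjusted p = 0.0382). The windows of Atg7 and Ctsl, which were called and hold CACGTG, are not shown, and the part of the motif in any difference was not tested.

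In the lysosome itself, the protease gene Ctsl was higher in CR than in each other diet. Ctsl, which encodes cathepsin L, a cysteine protease, ran from 11.75 to 12.01 (median 11.95) in C, 11.71 to 12.11 (11.97) in MF, 11.67 to 11.96 (11.77) in INT and 12.13 to 12.27 (12.18) in CR. CR lay above all other mice, with a difference of 0.27 (SE 0.07, adjusted p = 0.00503, 1.21-fold higher) from C, 0.29 (adjusted p = 0.00212) from MF and -0.38 for INT minus CR (adjusted p = 0.000181). Ctsd, for the aspartic protease cathepsin D, ran from 11 to 11.4 (median 11.05) in C, 10.83 to 11.44 (11.16) in MF, 10.85 to 11.11 (10.96) in INT and 11.11 to 11.3 (11.18) in CR. INT and CR did not overlap, though the highest INT value and the lowest CR value both round to 11.11. Ctsd was lower in INT than in CR, at -0.23 (SE 0.08, limma, adjusted p = 0.0382), without a call against C or MF. Removing any 1 of 9 mice (INT replicates 1, 2, 4, 5 and 6 or CR replicates 2, 3, 5 and 6) ended this call, at an adjusted p of at most 0.0863. The membrane protein genes Lamp1 and Lamp2, the acid lipase gene Lipa and Hexa, a subunit of a hexosaminidase, passed in no comparison. Lamp2 was among the steadiest of the genes, with an SD of 0.02 in C-fed mice and a CR minus C difference of -0.07 (95% interval -0.16 to 0.02). Lipa differed by -0.05 (-0.25 to 0.15). Hexa varied widely between mice of a diet, from 8.49 to 9.41 in C and from 8.31 to 9.43 in MF, against 8.17 to 8.72 in INT and 8.39 to 8.85 in CR, so that its CR minus C difference of -0.18 had a 95% interval from -0.51 to 0.16.

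Kupffer cells, the resident macrophages of the liver, are rich in lysosomes. The summed intensity of 15 marker genes of Kupffer cells and macrophages ran from 6570 to 10400 in C, 5480 to 9160 in MF, 5020 to 7320 in INT and 7350 to 11000 in CR, and INT and CR did not overlap. In CR against C 3 of the 15 were called, all higher (20%, beside 17.5% of all genes), and in CR against MF 4, all higher (26.7%, beside 19.8%). In INT against CR 8 were called, all lower in INT (53.3%, beside 15%), with a median of -0.442. None of the 15 was under the intensity of 20 in all mice of a diet. With uncalled markers included, 12 of the 15 were higher and 3 lower in CR than in C (median 0.243). Against MF, 13 were higher and 2 lower in CR (median 0.329), and all 15 were lower in INT than in CR. Clec4f, a marker of Kupffer cells, was called in all 3 comparisons (0.48, 0.48 and -0.44). In whole liver, fewer cells of a type and less RNA per cell cannot be told apart. The mean log2 intensity of 8 hepatocyte markers lay between 12.66 and 12.9 in every diet, and 1 of them was called in each comparison with CR, higher in CR. Of 4 cholangiocyte markers tested, 2 were called against C, 1 against MF and 1 in INT against CR, all higher in CR. Their summed intensity, with 1 further marker below the minimum, was 173 to 219 in C, 174 to 240 in MF, 184 to 241 in INT and 208 to 265 in CR. Of 10 sinusoidal endothelial markers, 2 were higher in CR than in C, 2 were higher and 1 lower than in MF, and 2 were lower in INT than in CR. Of 8 markers of lipid-associated macrophages, 1, 2 and 1 were called in these comparisons, all higher in CR. Called or not, 4 of the 8 were higher and 4 lower in CR than in C (median -0.121). Against MF, 3 were higher and 5 lower in CR (median -0.216), and all 8 were lower in INT than in CR (median -0.149). Spp1 was listed both here and among the cholangiocyte markers. Of the stellate, neutrophil and lymphoid markers 0 were called. The part of these cell type markers in the Ctsl, Ctsd and other differences was not tested.

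**Figure D4:**
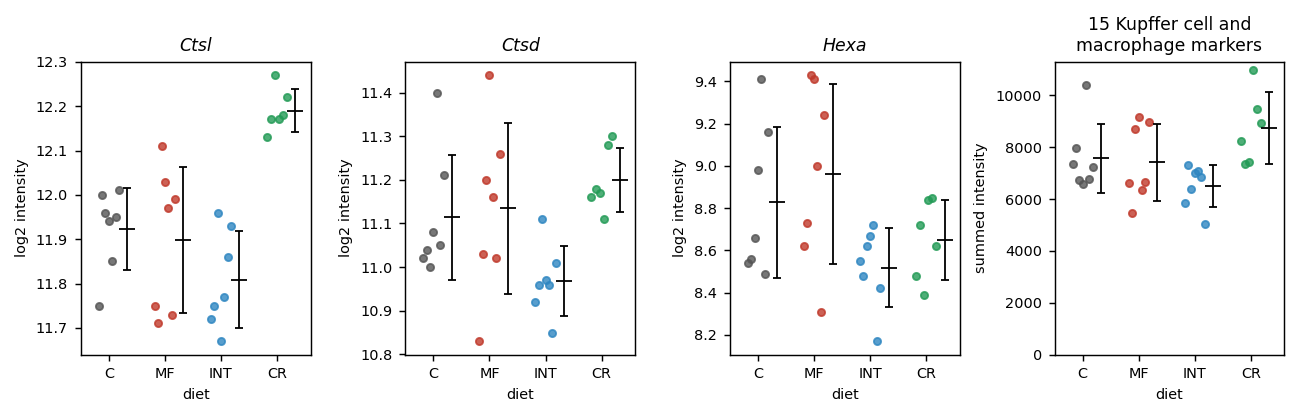
Log2 intensity of Ctsl, Ctsd and Hexa and, at right, the summed intensity of 15 Kupffer cell and macrophage markers (linear axis from 0), by diet. Points are mice and black bars the mean and SD. Ctsl in CR lies above all other mice, and the marker sum of INT (5020 to 7320) lies below that of CR (7350 to 11000).

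Beyond the 37 genes, other genes of the same pathway moved both ways. Of 43 other autophagy genes tested, 4 were higher and 6 lower in CR than in C, 6 and 7 against MF, and 4 higher and 5 lower in INT than in CR. These were 23.3%, 30.2% and 20.9% of the list, beside 17.5%, 19.8% and 15% of all genes. Their median log2 differences were 0.01, 0.001 and 0.005. The largest changes were in Wdr45b, a WIPI family gene, at -0.73 (SE 0.14, adjusted p = 0.000461) from C and -0.69 from MF, and in Dapk1, a kinase that acts on autophagy and cell death, at 0.53 (SE 0.07) and 0.54. Vps41, part of the complex that tethers vesicles to the lysosome, differed by -0.37 (SE 0.07, adjusted p = 0.000359) and -0.46. Retreg1, a receptor for the endoplasmic reticulum, differed by 0.51 between CR and MF (SE 0.16, adjusted p = 0.0261), a call lost without CR replicate 1 or 3 or MF replicate 1 or 2 (adjusted p up to 0.071). Nrbf2, a partner of the lipid kinase complex, differed by -0.29 between CR and MF (adjusted p = 0.0167) and Fundc1, a mitochondrial receptor, by -0.31 for INT minus CR (adjusted p = 0.0047).

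Of 55 other lysosome genes, 4 were higher and 6 lower in CR than in C, 3 and 7 against MF, and 5 higher and 8 lower in INT than in CR. Against C and MF the share called was 18.2% in each, near the 17.5% and 19.8% of all genes, and in INT against CR it was 23.6%, beside 15%. The medians were -0.014, -0.027 and -0.055. Arsa, for arylsulfatase A, which degrades sulfatides, had the largest change of these lists against C and MF, at -0.98 (SE 0.15, adjusted p = 4.44e-05) and -1.13 (adjusted p = 6.23e-06), and for INT minus CR its difference was 1.00. The glycosidase genes Manba and Idua were also lower in CR, at -0.42 (SE 0.07) and -0.49 (SE 0.10) from C and -0.53 and -0.45 from MF, as was Tpcn1, a lysosomal cation channel, at -0.48 (SE 0.09) in both. Atp6v1g1, a subunit of the proton pump that acidifies the lysosome, was higher, at 0.45 (SE 0.07, adjusted p = 2.29e-05) from C and 0.45 from MF. Ctsk, another cathepsin gene, was called at 0.54 from C (adjusted p = 0.0235) and 0.48 from MF (adjusted p = 0.0419). The first of these calls was lost without C replicate 4 or CR replicate 2, 4 or 6 (adjusted p up to 0.0759), and the second without any 1 of 9 mice (CR replicates 2, 4 and 6 and MF replicates 1 to 6, adjusted p up to 0.12). Without CR replicate 4 the number of other lysosome genes called was 6 against C and 6 against MF.

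Of 44 other genes of nutrient sensing, 6 were higher and 2 lower in CR than in C, 4 and 4 against MF, and 0 higher and 4 lower in INT than in CR. The shares called, 18.2%, 18.2% and 9.09%, were near or below the 17.5%, 19.8% and 15% of all genes. The medians were -0.016, -0.018 and 0.013. Ddit4, which acts through the TSC complex in stress and fasting, differed by 0.82 (SE 0.27, adjusted p = 0.035) from C and by -1.05 (adjusted p = 0.00814) for INT minus CR. Its difference from MF, 0.58 (adjusted p = 0.139), was not called. Removing any 1 of 8 mice (CR replicates 3 to 6 or C replicates 1, 3, 4 and 7) ended its call against C, at an adjusted p of at most 0.0987, as did the replicate block (adjusted p = 0.0504), the mouse number block (0.0566) and a fit to only the 2 diets (0.0595). Sesn1 and Sesn2, stress-induced genes of amino acid sensing, differed by 0.38 (SE 0.10) and 0.40 (SE 0.11) from C and by 0.37 and 0.38 from MF, and Depdc5, a subunit of the GATOR1 complex, by 0.32 (SE 0.07, adjusted p = 0.00163) and 0.27. Castor2, of the arginine sensor family, was lower, at -0.41 (SE 0.11, adjusted p = 0.00944) from C. Its difference from MF was -0.34, a call lost without CR replicate 1, 3 or 4 or MF replicate 5, 6 or 7 (adjusted p up to 0.102). Tbc1d7, the third subunit of the TSC complex, was lower than in MF, at -0.56 (SE 0.15, adjusted p = 0.00958). Without CR replicate 4, the number of these genes called was 5 against C. For INT against CR it was 1 without CR replicate 2 and 2 without INT replicate 1 or 6 or without 1 of CR replicates 4 and 5.

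**Figure D5:**
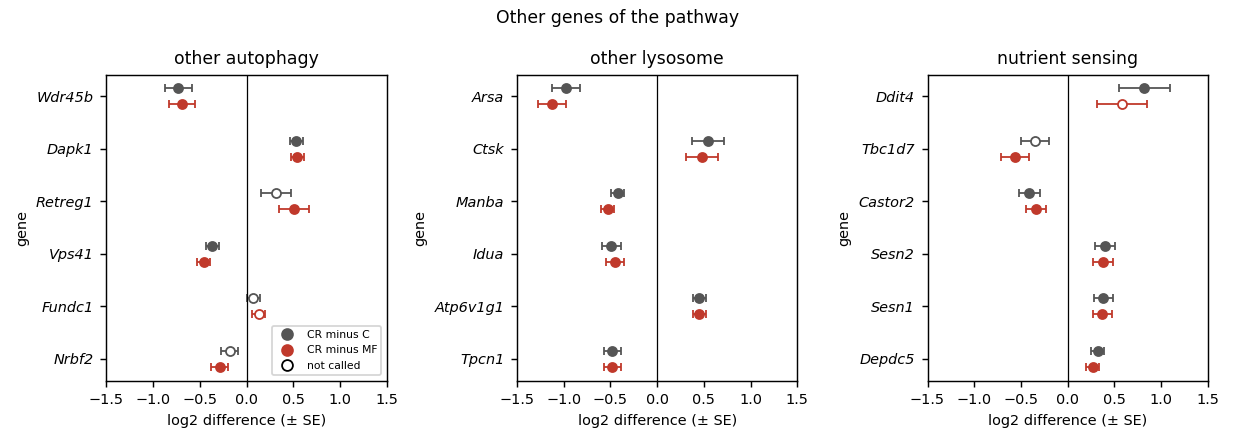
Log2 difference with SE (x axes) of up to 6 genes per list (y axes), chosen as the called genes of largest absolute difference in any comparison with CR, for CR minus C (grey) and CR minus MF (red). Open points were not called. Arsa lies at -0.98 and -1.13, and Sesn1, Sesn2 and Depdc5 lie above 0 with both calls, whereas Ddit4 was called against C only of these 2 comparisons.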

How the data were processed

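Liver RNA (100 ng per mouse) was hybridised to Affymetrix Mouse Gene 1.1 ST arrays. The authors normalized the arrays by robust multiarray average, and the deposited values are log2 intensities per probe set. Of 35556 probe sets, 21218 named 1 gene, 1881 several and 12457 none, and only the first kind was used. The methods describe probe sets per Entrez gene, which the table does not hold. The 13603 genes whose intensity exceeded 20 on 5 or more arrays were tested with limma 3.58.1 in R 4.3.3 (lmFit, contrasts and eBayes on all 27 arrays), 2-sided, with Benjamini-Hochberg adjustment over all genes and a threshold of 0.05. Figures used Python 3.11.15 with pandas 2.3.3 and matplotlib 3.10.9. The code was tested on simulated data. Arrays have no read depth, and the number of mice limits the precision. Array medians lay between 5.21 and 5.27, and no array repeated another.

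The genes and lists were chosen with earlier results of these data known. All listed genes are accounted for, and of each other pathway list at most 6 called genes of largest absolute difference over the comparisons with CR are named. Sequences are from RefSeq. Alternatives were 13 other settings and each of 27 mice left out.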

Additional observations from a re-analysis of the deposited data

Results flagged for a closer look

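In 10 of 140 sets of values (35 genes in 4 diets) the highest or lowest mouse stood far from the rest of its diet (7.14%), where chance gives about 1 in 20. Ulk1 was 9.54 in CR replicate 3, below 9.74 to 9.84 in the other CR mice, and Mtor was 8.22 in the same mouse, below 8.47 to 8.58. Atg10 was 7.43 in CR replicate 4, below 7.71 to 7.82. C replicate 6 had 3 such values: Atg13 at 10.44 (others 9.59 to 9.93) and Wipi1 at 8.51 (7.42 to 7.75) were high, and Gabarapl1 at 11.27 (11.55 to 11.7) was low. In MF replicate 4, Map1lc3a at 8.71 (7.97 to 8.21) was high and Rptor at 8.02 (8.17 to 8.24) low. Gabarapl2 was 11.13 in INT replicate 3 (11.24 to 11.32), and Wipi2 was 9.53 in INT replicate 6 (9.36 to 9.43).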

How the results depend on the processing

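Among the 35 genes, no difference changed sign while called, and MF against C, INT against C and INT against MF had 0 calls in every setting tried. With only replicates 1 to 4, the number of called genes was 5 for CR against C, 6 for CR against MF and 6 for INT against CR, beside 9.01%, 14.5% and 7.63% of all genes. With only replicates 5 to 7 it was 2, 2 and 1, beside 3.65%, 2.43% and 2.55%. These sets hold fewer mice. Leaving out 1 mouse gave between 10 and 12 calls for CR against C, 11 and 13 for CR against MF, and 7 and 13 for INT against CR, with the 7 without INT replicate 5. The labels do not say that a replicate number marks mice that shared a cage before the diets or were handled together. Deviations of mice with the same replicate number correlated at a mean of 0.0696, with 17 of 39 pairs above 0.1. Those of differently numbered mice correlated at -0.0114, with 51 of 234 pairs above 0.1, a smaller share. By mouse number the means were 0.005 and -0.000647, with 11 of 39 and 57 of 234 pairs above 0.1. The replicate number also follows the sets of arrays. The main fit did not take the numbers as pairs, and what mice of the same number shared was not tested. With replicate number as a block, the calls were 11, 11 and 11, and of the 34 called differences of the 35 genes only Gabarapl1 in INT against CR was lost (adjusted p = 0.0528). The remaining settings gave 10 to 14 calls. In these, Map1lc3b lost its call against MF with only the 2 diets compared, but was then called against C (adjusted p = 0.0262). Ctsd lost its call in INT against CR without an intensity minimum or with mouse number as a block. Wipi1 gained calls against MF with only the 2 diets compared (0.0132) or array weights (0.0399). With mouse number as a block Wipi1 was called against C (0.0419) and in INT against CR (0.0497), the latter also with array weights (0.0443). Array weights also gave calls to Atg5 against MF (0.0135) and in INT against CR (0.0368), and to Rptor against MF (0.0256). Of the genes of the other lists, Castor2 and Retreg1 lost their calls against MF, and Ctsk its call against C, with only the 2 diets compared, and Ctsk its call against MF without an intensity minimum, with cyclic loess or with array weights.

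Becn1 and Ctsb could not be assessed. With 6 or 7 mice per diet, and with 24 genes uncalled between CR and C, intervals such as that of Hexa reach -0.51 log2 units. Protein levels, phosphorylation and autophagic flux were not measured on these arrays.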
